A study of Mus musculus with 2 samples.

Results

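Ly49 receptors are lectin-like proteins of the cell surface that read MHC class I molecules, and they form a multigene family encoded side by side in the mouse. Their values were taken from arrays of 2 cultures labelled TH9, helper T cells named for making IL-9. The family was represented by 6 listed genes, Klra1, Klra3, Klra4, Klra5, Klra7 and Klra8. Members were the gene probes whose RefSeq accession maps to one of these symbols, which gave 10 probes of 5 genes out of 27220 probes matched to 20651 genes. No probe matched Klra3 (Ly49C), which was not analysed here. The genes were listed with the difference between these same arrays known, so all their values are a description and no test is given.

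One sample came from mice with floxed Sirt1 alleles and Cre under the Cd4 promoter (SIRT1flox/flox-CD4-Cre), called knockout, and the other from wild-type mice. Naive CD4 T cells sorted from spleen and lymph nodes were stimulated in both cultures through CD3 and CD28 (antibodies at 2 µg/ml each) in medium with human IL-2 (100 U/ml), TGFβ1 (2 ng/ml) and IL-4 (10 ng/ml). The descriptions give 5 days of culture and the protocol up to 6. Each genotype had 1 array, so no difference has a replicate check, and the number, age and strain of the mice are not given in the sources used here. Cre under the Cd4 promoter is known to act in developing T cells, from the stage at which they carry CD4, and not in NK or B cells. The Sirt1 probe, whose place relative to the deleted part is not known, gave a signal of 2920 on the array labelled knockout and 3240 on the wild-type array, so it cannot check the label. All directions below rest on that label.

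Both arrays gave signal over most of their range. Of 43020 gene spots, 65.3% on the array labelled knockout and 57.1% on the wild-type array were well above background, and 0 were saturated. The cytokine that defines TH9 cells, Il9, stayed below the well-above-background mark on both, with signals of 7.36 and 5.48 on the array labelled knockout and the wild-type array. Of the 12 genes on a TH9 list that holds Il9, 10 passed this mark on both arrays, as did 12958 of the 20651 matched genes. Cd4 gave signals of 2500 and 2870 in the same order, and Cd3e, a chain of the T cell receptor complex, 1020 and 2330. All 12 B cell markers and all 13 matched macrophage and dendritic cell markers passed the background mark on both arrays too. The B cell markers were bright, with a summed signal of 135900 on the array labelled knockout and 159900 on the wild-type array. The 13 matched T cell identity genes summed to 83420 and 85340 in the same order. Sums over different probes do not give shares of cells, and the make-up of the cultures was not tested. In such a bulk measurement more cells of a type and more RNA per cell cannot be told apart.

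Ly49 proteins are known mainly from natural killer (NK) cells, and subsets of memory CD8 T cells, NKT cells and myeloid cells carry some of them. Inhibitory members hold a cytoplasmic motif that recruits the phosphatases SHP-1 and SHP-2 when the receptor binds MHC class I. Activating members lack it and signal through the adaptor DAP12, encoded by Tyrobp. In NK cells each gene is switched on in only a part of the cells, and the number and kind of Ly49 genes differ between mouse strains.

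In the RefSeq table of GRCm38.p6 the genes follow each other on chromosome 6 in the order Klra17, Klra5, Klra6, Klra4, Klra8, Klra9, Klra7, Klra10, Klra3, Klra1 and Klra2, with 3 pseudogenes among them. Promoter windows, from 250 bases before to 50 bases after a start site, matched all 5 measured genes. The 5 windows below are shown because 4 of them are alike and the Klra1 window differs from these. Klra7 and Klra8 have 2 start sites each in the table, and the upstream one is given. Capitals mark the longest stretch common to Klra7, Klra8, Klra4 and Klra5, and in Klra1, which lacks it, a match to the RUNX motif TGTGGT. The sequences are from RefSeq, GRCm38.p6, written 5′ to 3′ along the gene.
Klra1, chr6:130386825-130387124, minus strand: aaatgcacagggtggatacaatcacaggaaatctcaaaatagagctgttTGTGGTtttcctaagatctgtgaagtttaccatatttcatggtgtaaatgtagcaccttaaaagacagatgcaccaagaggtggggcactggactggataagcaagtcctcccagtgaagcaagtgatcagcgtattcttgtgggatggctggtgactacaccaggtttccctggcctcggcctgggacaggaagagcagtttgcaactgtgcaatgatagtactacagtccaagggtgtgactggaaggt
Klra7, chr6:130233273-130233572, minus strand: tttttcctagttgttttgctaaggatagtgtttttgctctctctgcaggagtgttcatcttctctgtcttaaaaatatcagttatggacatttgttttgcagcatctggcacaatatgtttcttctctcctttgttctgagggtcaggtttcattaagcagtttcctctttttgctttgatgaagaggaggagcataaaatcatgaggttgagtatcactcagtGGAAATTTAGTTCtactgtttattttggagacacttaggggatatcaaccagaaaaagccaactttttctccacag
Klra8, chr6:130129849-130130148, minus strand: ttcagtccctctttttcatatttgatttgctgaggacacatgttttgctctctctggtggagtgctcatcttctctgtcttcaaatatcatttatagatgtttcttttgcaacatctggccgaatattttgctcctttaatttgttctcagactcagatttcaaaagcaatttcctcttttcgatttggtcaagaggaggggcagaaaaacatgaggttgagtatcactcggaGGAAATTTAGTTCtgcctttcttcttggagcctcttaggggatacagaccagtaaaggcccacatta
Klra4, chr6:130067222-130067521, minus strand: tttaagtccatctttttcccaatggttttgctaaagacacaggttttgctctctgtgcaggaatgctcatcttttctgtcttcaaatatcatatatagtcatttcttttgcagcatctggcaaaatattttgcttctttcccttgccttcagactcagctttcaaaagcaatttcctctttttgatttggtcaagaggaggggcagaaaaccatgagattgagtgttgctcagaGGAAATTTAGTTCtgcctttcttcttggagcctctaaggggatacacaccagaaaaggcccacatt
Klra5, chr6:129913175-129913474, minus strand: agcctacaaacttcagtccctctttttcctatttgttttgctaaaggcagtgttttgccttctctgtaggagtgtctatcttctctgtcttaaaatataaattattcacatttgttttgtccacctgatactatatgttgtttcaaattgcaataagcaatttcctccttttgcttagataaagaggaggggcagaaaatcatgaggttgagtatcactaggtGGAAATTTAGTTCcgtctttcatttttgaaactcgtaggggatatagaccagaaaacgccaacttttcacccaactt

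The windows of Klra7, Klra8, Klra4 and Klra5 were 66.1% to 86.0% identical to each other over 6 pairs in a global alignment. Klra1 was 42.9% to 49.7% identical to the 12 other Ly49 windows. It was not alone in this. The downstream window of Klra7 was 46.0% to 49.4% identical to the same 4 windows, and Klra10 was 44.5% to 47.9%. The likeness of Klra7 to the other 3 genes thus holds for its upstream window only. The capital stretch has 13 bases and ends from 15 bases (Klra5) to 4 bases (Klra4) before the start site. It lies in 6 of the 13 Ly49 windows, those of Klra4, Klra5, Klra6, the upstream one of Klra7 and both of Klra8, and these are all 6 of the 32851 windows in the table that hold it, 0.0183%. Motifs were searched on both strands, and overlaps were allowed. The RUNX motif TGTGGT was found only in the Klra1 window among the 13, against 16.8% of all windows. The TCF motif CTTTGA was in 3 (Klra6 and both windows of Klra7; 16.0% of all), the T-box motif GGTGTG in 2 (Klra1 and Klra4; 19.0%) and TATAAA in 8 (13.6%). A match to these letters describes the window and is not a binding site. Probes read transcripts, which were not compared here, so likeness of the windows does not tell how specific a probe is. Which of several alike transcripts a probe reads was not tested, and the probes' own sequences were not used here.

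Every Ly49 probe read on both arrays, that is, well above background on each, gave a higher processed signal on the array labelled knockout. Of the 10 member probes 7 were so, at least 1 for each of the 5 genes. Klra1 and 1 probe of Klra7 were higher by at least 2-fold, and the other 5 probes by 1.35-fold to 1.65-fold. Among all 21863 gene probes read on both arrays, 3.20% were higher by at least 2-fold, 5.35% were lower by as much and 44.0% were higher by any amount. As the genes were chosen on this contrast, nothing is read from the members' share beside these. The median difference of the 7 probes was 0.69 on the log2 scale, against -0.06 over all the probes, in log2 processed signal relative to each array's 75th percentile, knockout minus wild-type. Another background correction (normexp) turned the Klra5 probe to -0.45 and left the other 6 higher.

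**Figure D1:**
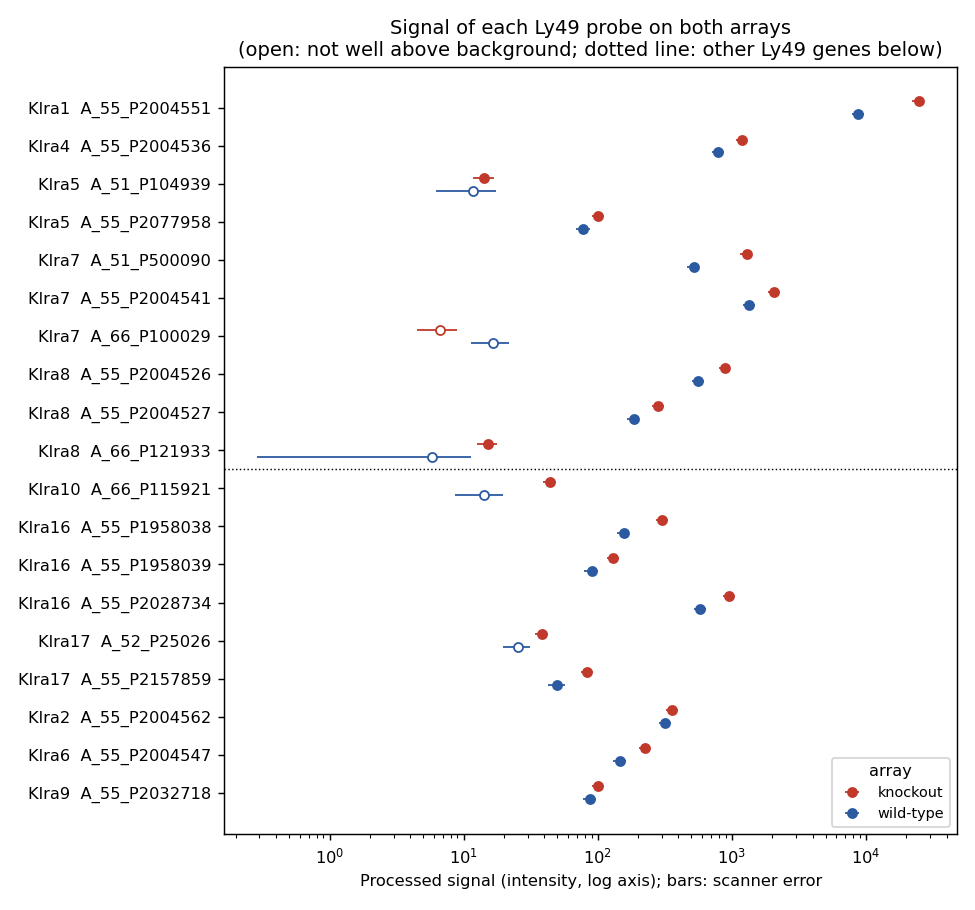
Processed signal (intensity, log axis) of each Ly49 probe on the array labelled knockout (red, upper point of each pair) and the wild-type array (blue), with bars for the scanner's own error and open points where a probe was not well above background. Klra1 reached 24700 against 8790, and every pair with both points filled has the red one to the right.

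Among the inhibitory receptors, Klra1 differed most. It encodes Ly49A, known as a receptor for the MHC class I molecule H-2Dd. Its single probe gave a signal of 24700 ± 2470 on the array labelled knockout and 8790 ± 879 on the wild-type array, where ± is the scanner's error for the spot. The difference was 1.56 ± 0.20 on the log2 scale, a 2.94-fold higher signal. Relative to the 75th percentile, the probe stood at 5.57 on the array labelled knockout and 4.01 on the wild-type array, so it was bright on both. Of all gene probes read on both arrays, 0.627% had a difference of that size or more. As Klra1 was listed with this contrast known, that share is a description and not a test. The 606 probes within 0.5 of the Klra1 probe's mean level had a median difference of 0.02. The 62 probes read on both arrays that were spotted within 5 rows and columns of it had one of -0.25.

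Klra7 encodes Ly49G, an inhibitory receptor for H-2Dd and related molecules, and its probes disagreed on the size. Probe A_51_P500090 gave 1290 ± 129 on the array labelled knockout and 519 ± 52.1 on the wild-type array, a 2.60-fold higher signal (1.38 ± 0.20, log2). Probe A_55_P2004541 gave 2080 ± 208 and 1350 ± 135 in the same order, 1.61-fold (0.69 ± 0.20). Both probes had more signal on the array labelled knockout, and their differences lay 0.69 apart, with an error of 0.28 on that gap. The 2 probes are assigned to different Klra7 transcripts in the files, and with 1 array per genotype the gap has no replicate check. The third probe, A_66_P100029, did not pass the background mark on the array labelled knockout or the wild-type array, at 6.71 and 16.6, and gives no fold.

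Klra5 encodes Ly49E, an inhibitory member known from fetal NK cells and intraepithelial lymphocytes, and was dim. Probe A_55_P2077958 gave 101 ± 10.3 on the array labelled knockout and 78.0 ± 9.26 on the wild-type array, 1.35-fold higher (0.44 ± 0.23, log2), a direction that turned with normexp to -0.45. The 2742 probes of like signal had a median of -0.72 under that correction and -0.16 in the processed signal, so the Klra5 probe stood 0.27 above them with normexp and 0.60 above them in the processed signal. The second Klra5 probe was spotted 10 times, with 9 spots kept on each array. Its spots ran from 12.3 to 16.7 with a median of 13.8 on the array labelled knockout, all 9 well above background, and from 6.10 to 17.7 with a median of 12.0 on the wild-type array, 0 of 9 well above background. The spots overlap between the arrays, and no fold is given, since the lowest signal well above background on the wild-type array was 24.6.

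The activating receptors were closer together. Klra4 encodes Ly49D, which signals through DAP12. Its probe gave 1190 ± 119 on the array labelled knockout and 793 ± 79.5 on the wild-type array, 1.57-fold higher (0.65 ± 0.20, log2). Klra8 encodes Ly49H, the receptor through which NK cells of C57BL/6 mice recognise the m157 protein of mouse cytomegalovirus. Probe A_55_P2004526 gave 887 ± 88.7 on the array labelled knockout and 563 ± 56.5 on the wild-type array, 1.65-fold (0.72 ± 0.20). Probe A_55_P2004527 gave 282 ± 28.3 and 185 ± 19.1 in the same order, 1.59-fold (0.67 ± 0.21). These 2 probes of Klra8 differed from each other by 0.05, less than the error of 0.29 on that gap. The lower value fell to 0.14 with normexp, where 2525 probes of like signal had a median of -0.33. The third Klra8 probe, A_66_P121933, passed the background mark only on the array labelled knockout, at 15.1, against 5.78 on the wild-type array, and lay too close to the floor for a fold.

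**Figure D2:**
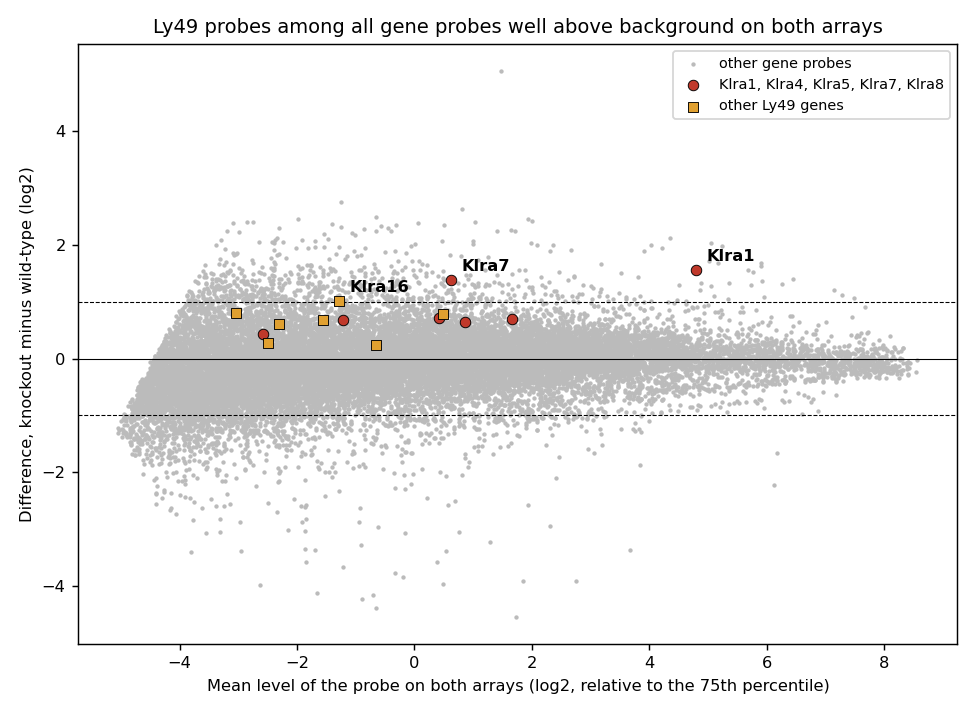
Difference between the arrays (knockout minus wild-type, log2) against the mean level of a probe relative to the 75th percentile (log2), for the 21863 gene probes well above background on both arrays (grey), the 7 member probes (red circles) and 7 probes of other Ly49 genes (orange squares). Dashed lines mark 2-fold, which Klra1, 1 probe of Klra7 and 1 of Klra16 pass, and all Ly49 points lie above 0, although 4 of the 14 fell below it with normexp.

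The scanner error is the only error carried by a probe with 1 spot, and repeat spots give a sense of it. For gene probes with repeat spots and a signal over 100, the SD between spots of an array had a median of 0.0274 on the log2 scale on the array labelled knockout (210 probes) and 0.0325 on the wild-type array (212 probes). The widest SDs were 0.106 and 0.264. All 7 member differences exceeded their scanner errors, as did 25.1% of all probes in the upward direction. These errors cover the reading of the same labelled RNA and not the spread between cultures or mice, which was not measured.

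The other genes of the family were not among the 6 listed but share the same arrays. In the files 9 probes matched 6 of them, and 7 probes of 5 genes were read on both arrays, all 7 higher on the array labelled knockout by 1.18-fold to 2.03-fold, with a median difference of 0.68. With normexp 3 of these 7 turned, the Klra9 probe (-0.52), the Klra17 probe (-0.49) and 1 Klra16 probe (-0.23), in a range where probes of like signal had medians of -0.70, -0.85 and -0.64. Klra6 (Ly49F), an inhibitory receptor, gave 224 on the array labelled knockout and 146 on the wild-type array, 1.61-fold. Klra9 (Ly49I), also inhibitory, gave 101 and 87.7 in the same order, 1.20-fold. The Klra9 difference of 0.27 was little above its error of 0.22, and Klra6 was at 0.01 with normexp.

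Klra16, whose protein Ly49P is an activating receptor known from other strains such as 129, had 3 probes read on both arrays. They gave 302 and 156, 954 and 582, and 130 and 90.0 on the array labelled knockout and the wild-type array, or 2.03-fold, 1.71-fold and 1.51-fold. Whether these mice carry Klra16 is not known from the labels, and a probe may also read its relatives, which was not tested. Klra10 (Ly49J) passed the background mark only on the array labelled knockout, at 44.1, against 14.1 on the wild-type array, at least 1.88-fold higher there and -0.69 on the log2 scale with normexp, where the bound sets the bright signal against the lowest signal well above background on the dim array after scaling.

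Members carried by myeloid cells were also read. Klra17 encodes Ly49Q, an inhibitory receptor of plasmacytoid dendritic cells and other myeloid cells, and stood at -2.64 on the array labelled knockout and -3.44 on the wild-type array relative to the 75th percentile (log2), 1.74-fold higher. Its second probe passed the background mark only on the array labelled knockout, at 38.3 against 25.4 on the wild-type array. After scaling these signals were 1.58-fold apart (0.66 ± 0.36, log2), and -0.90 (log2) with normexp. The 1.58 is not a lower bound, since 25.4 lies above 24.6, the lowest signal well above background on the wild-type array. Klra2 encodes Ly49B, found on myeloid cells, and gave 360 and 320 in the same order, 1.18-fold (0.24 ± 0.21, log2). Of the macrophage and dendritic cell markers 12 of 13 were higher on the array labelled knockout, with a median of 0.69 (8 of 13 and 0.17 with normexp). The summed signal of the list was 26550, against 14650 on the wild-type array. Over all 12958 genes read on both arrays, each by 1 probe, 50.4% were higher in the processed signal, and 5704 genes were higher with normexp. Markers of plasmacytoid dendritic cells, with 4 higher and 3 lower of 7, had a median of 0.06. Their part in the Klra17 and Klra2 values was not tested.

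**Figure D3:**
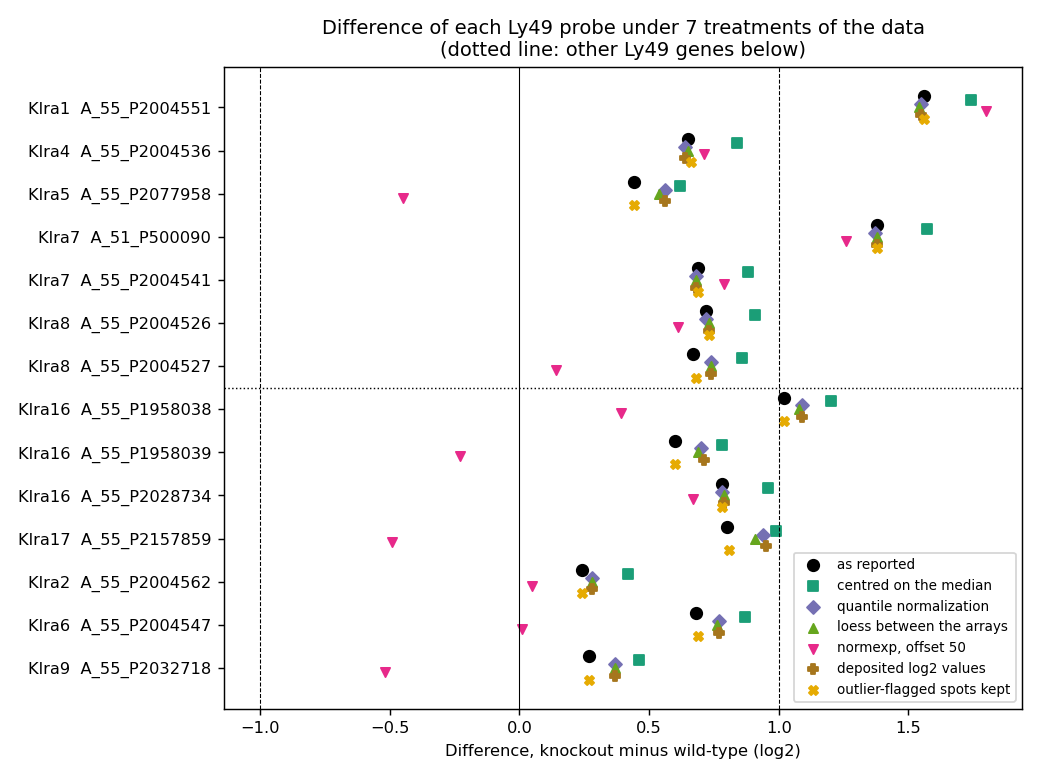
Difference of each Ly49 probe read on both arrays (knockout minus wild-type, log2) under 7 treatments of the data, with members above the dotted line and dashed lines at 2-fold. Klra1 stayed between 1.54 and 1.80, while with normexp (pink) the dim probes fell, Klra5 to -0.45.

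Partners of the receptors were read on the same arrays, from lists written with earlier results of these data known. For the activating side, Tyrobp (DAP12), which Ly49D and Ly49H need at the surface, gave 5990 on the array labelled knockout and 3290 on the wild-type array, 1.90-fold (0.93 ± 0.20, log2). Fcer1g, an adaptor of the same kind used by Fc receptors, gave 1210 and 703, 1.80-fold. Lat, an adaptor also in the T cell identity list, gave 8240 and 4560 in the same order, 1.89-fold. Of the 18 adaptors and kinases, 11 were higher and 7 lower with a median of 0.19, where 50.4% of all genes were higher. Of these 18, 0 passed 2-fold (2 did with normexp, and 3 with arrays centred on their medians), and Fyn was the lowest at -0.83. Tyrobp and Fcer1g are also abundant in macrophages, of whose list with dendritic cell markers 12 of 13 were higher (8 of 13 with normexp). The part of these cells in the Tyrobp and Fcer1g values was not tested.

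On the inhibitory side the phosphatases differed by less than 2-fold. Ptpn6 (SHP-1) gave 8020 on the array labelled knockout and 6880 on the wild-type array, a difference of 0.29 ± 0.20 (0.47 with normexp), and Ptpn11 (SHP-2) gave 4900 and 4450, a difference of 0.20 ± 0.20 (0.39 with normexp). Inpp5d (SHIP-1), a lipid phosphatase, differed by -0.38 ± 0.20 (-0.15 with normexp). The adaptors Dok1 and Dok2 differed by 0.57 ± 0.20 and 0.53 ± 0.20 (0.45 and 0.71 with normexp). Of the 6 members read on both arrays, 4 were higher and 2 lower, with 0 past 2-fold. Among all genes 50.4% were higher and 3.95% at least 2-fold higher. The seventh, Pag1, a membrane adaptor that recruits the kinase Csk, passed the background mark only on the wild-type array, at 7.51 on the array labelled knockout and 28.6 on the wild-type array, at least 2.85-fold higher in wild-type. It was named after its values were seen.

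The ligands differed little in the processed signal. With normexp most gave more signal on the array labelled knockout, as bright probes did by their median. B2m, the light chain of MHC class I, gave 76000 on the array labelled knockout and 73000 on the wild-type array (0.12 ± 0.20, log2), and H2-K1 gave 126000 and 122000 (0.11 ± 0.20). H2-D1 gave 17400 and 20000 (-0.14 ± 0.20), a sign that turned with normexp (0.07), where B2m was at 0.40 and H2-K1 at 0.38. Of 13 class I genes 9 were higher and 4 lower with a median of 0.04, where 50.4% of all genes were higher. H2-Q10 alone passed 2-fold, at 2.93-fold by its brighter probe and -0.32 on the log2 scale by the other. With normexp 12 were higher with a median of 0.29, and after centring on the median 13 of 13 were higher (0.23). The 606 probes of like signal to Klra1, a level near that of H2-D1, also had a median of 0.29 with normexp. Over all 12958 genes 5704 were higher with normexp (median -0.09), and 8704 after centring on the median (0.19). The class I counts under these treatments are therefore not read as higher expression of the ligands.

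Other NK cell genes were also mostly higher in the processed signal. Of 15 NK cell markers read on both arrays, 13 were higher on the array labelled knockout and 2 were lower, with 2 at least 2-fold higher, and their median difference was 0.40. Over all 12958 genes read on both arrays, each by 1 probe, 50.4% were higher, 3.95% were at least 2-fold higher and the median was 0.00. The summed signal of the 19 matched markers was 46970 on the array labelled knockout and 31590 on the wild-type array, with single genes from 2.13 to 23100 and from 5.47 to 12000. Without Ccl5, a chemokine also made by T cells, the sums were 23870 and 21090 in the same order. S1pr5, a receptor that lets NK cells leave the bone marrow, was 2.25-fold higher (0.28 on the log2 scale with normexp) and Ccl5 was 2.30-fold higher. Ncr1, which encodes NKp46 and defines NK cells, was dim, with 96.7 and 65.1 on the array labelled knockout and the wild-type array (0.64 ± 0.23), and Klrb1c (NK1.1) gave 96.5 and 115 (-0.19 ± 0.22). Itga2 (CD49b) and Serpinb9b, named after their values were seen, did not pass the background mark on either array. With normexp the median of the list fell to 0.06, that over all 12958 genes fell to -0.09, and the Ncr1 difference turned to -0.46. Probes of like signal to Klra17 and Klra9, whose levels lie on either side of Ncr1, had medians of -0.85 and -0.70 with normexp. The part of NK cells in the Ly49 values was not tested.

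Other lectin receptors of NK cells were mostly higher in the processed signal as well. Of 10 read on both arrays, 9 were higher on the array labelled knockout and 1 lower, with a median difference of 0.50, but with normexp 2 were higher and 8 lower, with a median of -0.44. Dim probes fell with normexp in general. Klrk1 (NKG2D) gave 85.9 on the array labelled knockout and 46.7 on the wild-type array, 1.92-fold, although normexp gave a log2 difference of -0.42. The 2826 probes of like signal to the Klra17 probe, a level near that of Klrk1, had a median of -0.85 under that correction. Klrg1, which binds cadherins and inhibits effector cells, had a 2.08-fold higher signal. CD8 T cells can carry Ly49 receptors as well. Cd8a gave 3280 and 2420 in the same order, 1.42-fold by its brighter probe and -0.06 on the log2 scale by the other, and 4 of 6 CD8 markers were higher, with Ccl5 among them. Gzmk, a granzyme of memory CD8 T cells, was lower on the array labelled knockout, at 52.8 against 102 on the wild-type array (-0.88 ± 0.22, and -1.05 with normexp). Of the NKT and gamma delta T cell markers 1 was higher and 3 lower of 4 read, with a median of -0.52 (-0.74 with normexp). The list summed to 2962 on the array labelled knockout and 3244 on the wild-type array. Cd1d1, which is not specific to these cells, gave 2620 and 2730 of these sums. Sox13, a transcription factor of gamma delta T cells, differed by -0.92. Blk, a kinase of B cells and some gamma delta T cells, differed by -1.41. It is also 1 of the 12 B cell markers, of which 11 were lower (6 after centring on the median). The part of CD8, NKT and gamma delta T cells in the Ly49 values was not tested. The T cell identity list was split, with 6 of 13 higher and 7 lower (8 and 5 after centring on the median).

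Transcription factors of NK and Ly49-expressing cells were mixed. On the array labelled knockout 14 of the 20 read were higher and 6 were lower, with a median of 0.08. Among all genes 50.4% were higher and 3.95% at least 2-fold higher. Tbx21 (T-bet), which NK cells need to mature, gave 1330 and 601 on the array labelled knockout and the wild-type array, 2.32-fold, the only one past 2-fold by the brightest probe of each gene. Id2 was 1.52-fold higher, and Ets1 differed by -0.57 by its brighter probe and -1.29 by the other. Tcf7 (TCF-1), named after its values were seen, had the same split, with -0.43 and -1.14.

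**Figure D4:**
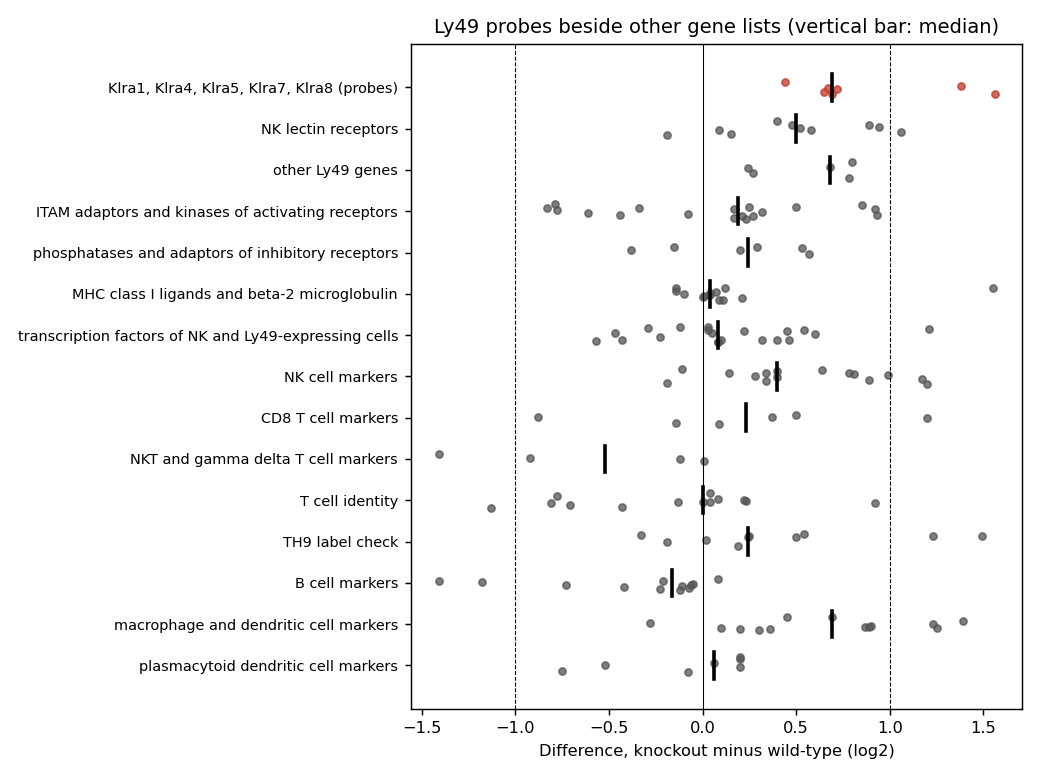
Difference of each gene (knockout minus wild-type, log2, 1 probe a gene, well above background on both arrays) in the lists named on the left, with the 7 member probes in red at the top and a vertical bar for each median. The Ly49 probes have a median of 0.69, the NK cell markers 0.40 and the MHC class I ligands 0.04.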

How the data were processed

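RNA of 2 cultures labelled TH9 was hybridised to 1-colour (Cy3) Agilent mouse arrays, 1 array per genotype, grouped by the genotype label. Agilent Feature Extraction 11.0.1.1 read the spots, per the file headers, and the 2 arrays share a slide and a scan. The deposited scanner files give an intensity per spot, from which the scanner software subtracted background, with its error and flags. The deposited value table gives log2 values with equal medians, by a normalization that the sources used here do not state.

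Spots flagged as outliers (138 of 43020 on the array labelled knockout and 228 on the wild-type array) and control spots were left out. Spots of a probe were averaged on the log2 scale, and each array's 75th percentile over 39411 probes was subtracted. A probe with several spots was well above background if most of its spots were. Accessions without version were matched to symbols in the RefSeq table of GRCm38.p6, and 12191 probes were unmatched and not analysed here. The header names another build, so coordinates are given only with the promoter sequences, in the build of their table. The members and all gene lists were chosen with earlier results of these data known. Genes named outside the family are a fixed set of 13 or the largest differences of a list, and Klrk1, Klrg1, Fyn and others came in that way. Itga2, Serpinb9b, Tcf7 and Pag1 are outside this rule and were named after their values were seen. The functions were tested on simulated arrays.

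With 1 array per genotype there is no test of their difference and no p-value. The number of arrays limits the precision. Alternatives were quantile normalization, centring on the median, loess, normexp with an offset of 50 on the median pixel intensity (limma 3.58.1 in R 4.3.3), the deposited log2 values, outlier-flagged spots kept, other filters on dim probes, and thresholds of 1.5-fold and 3-fold. Python 3.11.15 and Biopython 1.88 were used for the rest.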

Additional observations from a re-analysis of the deposited data

How the results depend on the processing

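No paired analysis was possible because each genotype has 1 array. Of the 42 values obtained for the 7 member probes under 6 other treatments of the signal, 39 stayed within the scanner error of the reported difference. With normexp 2 moved beyond it with the same sign (Klra1 at 1.80 and Klra8 at 0.14), and 1 reversed (Klra5 at -0.45). Relative to the median of probes of like signal, Klra1 stood at 1.53 as reported and 1.52 with normexp, and this Klra8 probe at 0.75 and 0.47. The count of 2 member probes at least 2-fold apart was also 2 under each of these treatments, and 3 with probes read on at least 1 array. It was 4 with every probe whatever its background flag, 1 with 1 probe a gene, 6 at 1.5-fold and 0 at 3-fold. The third probe was A_66_P121933 of Klra8, at 1.45 ± 1.43 on the log2 scale. The fourth, A_66_P100029 of Klra7, was lower on the array labelled knockout (-1.24 ± 0.66) and below the background mark on both arrays. The median difference of 0.69 lay between 0.68 and 0.88 under all alternatives. Over all probes read on both arrays, 699 were at least 2-fold higher and 1169 lower as reported, 1110 and 696 after centring on the median, 850 and 881 after quantile normalization, 807 and 920 after loess, 281 and 3172 with normexp, and 870 and 880 in the authors' deposited log2 values. Their median moved from -0.06 to 0.12 after centring on the median and to -0.22 with normexp. None of the 18 single-spot Ly49 probes was among the 31 and 13 probes whose deposited values leave the trend of the scanner signal on the array labelled knockout and the wild-type array. Dim probes limit Klra5 and the third probes of Klra7 and Klra8, which lie near the lowest signals well above background, 9.60 and 24.6 on the array labelled knockout and the wild-type array.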
